A study of Mus musculus with 10 samples.

Results

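Endothelial cells line the inside of the aorta, of the small vessels that feed its wall and of the capillaries in the fat around it. They carry receptors for VEGF, angiopoietins and BMPs, adhesion proteins that seal the junctions between neighbouring cells, and a set of transcription factors of the ETS, SOX and KLF families that maintain these genes. The signals described here are those of a list of 33 genes of this kind, chosen by name, with earlier results of these data known. Each probe set of the array whose annotation gave exactly 1 gene symbol from the list was taken. In all, 32 of the 33 listed genes were analysed, out of 18193 genes with such a probe set on the array, and 1 of the 33 listed genes was not analysed here.

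The RNA came from the abdominal aorta of 10 mice, 1 GeneChip Mouse Genome 430 2.0 array per mouse. Of these, 6 were KCASP1Tg mice, in which the human caspase-1 gene is overexpressed in keratinocytes under the K14 promoter and persistent dermatitis develops, and 4 were WT C57BL/6 littermates. All were female and 4 months (16 weeks) of age, and the labels give no treatment. The K14 promoter drives the transgene in keratinocytes, so the aorta is read here as a distant organ. The comparison of KCASP1Tg with WT addresses what the aorta of mice with lasting skin inflammation expresses. The signal of a probe set is the MAS5.0 intensity of the authors, scaled to a trimmed mean of 500 on each array.

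The label calls the tissue dechorionated abdominal aorta. All 32 analysed genes reached 100 on each of the 10 arrays, so that 32 of 32 passed the filter on low values, and smooth muscle transcripts were high (Myh11, the smooth muscle myosin heavy chain, averaged 10906 in WT mice). So were fat transcripts (Adipoq, the adipocyte hormone adiponectin, averaged 34349), and the endothelium of the aorta and that of vessels in fat cannot be told apart in these samples. In such bulk RNA, fewer endothelial cells and less RNA per endothelial cell cannot be told apart either. Heart muscle transcripts were found on 3 arrays (WT 4, KCASP1Tg 1 and KCASP1Tg 2), with summed signals of 16759 to 58515 over 6 genes, against 472 to 3207 on the other arrays. The array KCASP1Tg 4 stood apart, with a summed lymphocyte and lymph node signal (5 genes) of 25330 against 239 to 1021 on the other 9 arrays and a summed smooth muscle signal of 30316 against 66748 to 81847.

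Few probe sets of any kind were called between the genotypes, and no endothelial identity gene was among them. None of the 32 passed the test, limma on log2 signals with Benjamini-Hochberg adjustment over the 26242 probe sets that reached 100 on 4 or more arrays. The count was 0 of 32 higher, where 0.0686% of all probe sets tested were called higher, and 0 of 32 lower, where 0.0% were called lower. At an unadjusted p under 0.05, 2 of 32 genes (S1pr1 and Gpihbp1) were higher and 0 were lower, against 4.52% and 3.42% of all probe sets (7.94% in either direction). In 0 of 32 genes did the KCASP1Tg signals lie wholly above or wholly below the WT signals, against 1.98% and 0.949% of all probe sets (2.93% in either direction). By the exact Mann-Whitney test 0 of 32 passed after adjustment, and the smallest p that 4 against 6 mice allow is 0.00952. The counts of this paragraph were near the shares of all probe sets, and by themselves do not show that the genes were unchanged.

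The differences were small, and for most genes the intervals were narrow. The median log2 difference (KCASP1Tg minus WT) over the 32 genes was 0.036, with 19 positive and 13 negative, and the range was -0.27 (Sox7) to 0.48 (Gpihbp1). Over all probe sets tested the median was -0.0018. The 95% interval of the difference lay within 1.5-fold either way for 24 of the 32 genes (75.0%), a share that was 52.8% over all probe sets and 62.0% over the 9002 genes whose mean signals fall in the range of the endothelial genes. It lay within 2-fold for 31 of the 32, the exception being Rgcc. The 8 genes whose interval went beyond 1.5-fold were Ptprb, Notch4, Sox7, Klf2, Vwf, Gpihbp1, Rgcc and S1pr1. For these 8, a difference of 1.5-fold lay inside the interval. The median SD within groups was 0.23 on the log2 scale, against 0.24 in genes of the same signal range. When each array was left out in turn, 27 of the 32 differences moved by over 1.5 times at least once and 12 changed sign, but no difference moved by more than 0.24 on the log2 scale. The largest move came without KCASP1Tg 4 for 13 of the 32.

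**Figure D1:**
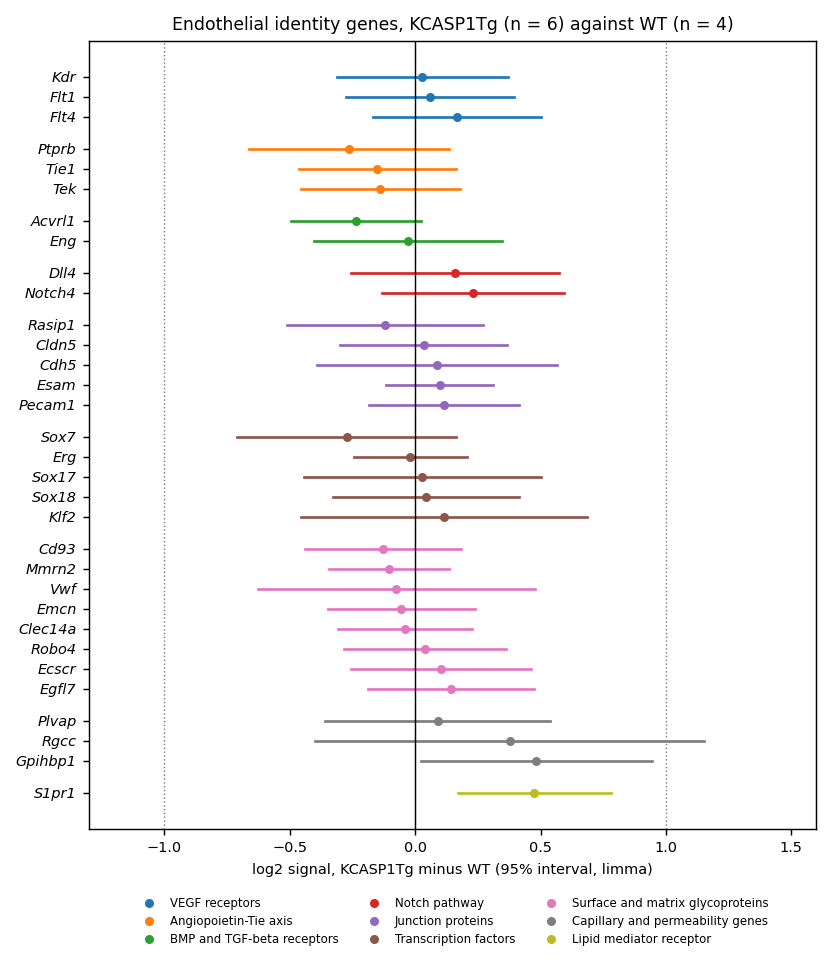
The log2 difference in signal (KCASP1Tg minus WT, horizontal axis) is plotted for each of the 32 genes, grouped by role, as a point with its 95% limma interval; dotted lines mark 2-fold in either direction. All points but 3 lie between -0.27 and 0.23, the intervals of S1pr1 and Gpihbp1 lie above 0, and that of Rgcc alone passes a dotted line.

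S1pr1 encodes the receptor for sphingosine 1-phosphate, a lipid in plasma that stabilizes endothelial junctions. It is also carried by lymphocytes. S1pr1 read 1205, 1093, 925 and 1358 in the 4 WT mice and had a median of 1604 in the 6 KCASP1Tg mice, with 1262 the lowest and 1758 the highest. 5 of the 6 KCASP1Tg mice exceeded every WT mouse, and KCASP1Tg 6 fell between WT 1 and WT 4. For S1pr1 the difference was 0.48 ± 0.14 (log2, SE), a 1.39-fold higher level with an interval of 1.13 to 1.72, and the adjusted p was 0.374. Without WT 4, the highest WT value, the groups did not overlap, as for 5.95% of all probe sets in that setting. The difference lay between 0.38 and 0.56 when each array was left out in turn. It passed the test under 1 alternative, array weights, with a difference of 0.60 and an adjusted p of 0.0403. On KCASP1Tg 4, the array with the high lymphocyte signal, S1pr1 read 1757, close to the highest KCASP1Tg value of 1758. Without that array the difference was 0.44. The part of lymphocytes in the S1pr1 signal was not tested. Sphk1 and Sphk2, the kinases that make the ligand, differed by 0.12 ± 0.12 and 0.42 ± 0.16. In WT mice Sphk2 stood at 323, 196, 278 and 303, and in KCASP1Tg mice it ranged from 312 to 430.1 around a median of 355. The groups overlapped. For Sphk2 a second probe set went the other way, at -0.53 ± 0.29, and the mean of both was -0.056, so that no direction is given for it.

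The capillary and permeability genes had the widest spread of the roles. Gpihbp1, which holds lipoprotein lipase on the capillaries of fat and muscle, is one of their defining genes. Gpihbp1 gave signals of 3405, 2597, 2454 and 3597 in WT mice and of 2742 (lowest), 4643 (median) and 5116 (highest) in KCASP1Tg mice. 4 KCASP1Tg mice were above every WT mouse, while KCASP1Tg 4 and KCASP1Tg 6 lay within the WT range. The difference for Gpihbp1 was 0.48 ± 0.21 (1.4-fold, interval 1.02 to 1.92, adjusted p = 0.596). Lpl, the lipase that it binds, differed by 0.014 ± 0.16. With the mean log2 signal of the adipocyte markers as a covariate the Gpihbp1 difference was 0.32, and without WT 4, KCASP1Tg 1 and KCASP1Tg 2 it was 0.48.

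Rgcc, a cell cycle regulator that is abundant in capillary endothelium, had the largest spread of the 32. Rgcc read 2969.9, 3294, 3535 and 4778 in the 4 WT mice and had a median of 5210.3 in the 6 KCASP1Tg mice, with 2034 the lowest and 7429.9 the highest. KCASP1Tg mice occupied both ends of the order: KCASP1Tg 2 and KCASP1Tg 5 were highest and KCASP1Tg 6 was lowest, below all WT mice. For Rgcc the difference was 0.38 ± 0.35, with an interval of -0.40 to 1.15 and an adjusted p of 0.88, and its second probe set gave 0.29 ± 0.24. It was 0.62 without KCASP1Tg 6 and 0.24 without KCASP1Tg 2. Plvap, the protein of the diaphragms that span endothelial fenestrae and caveolae, differed by 0.090 ± 0.20, from a WT mean of 1983 to a KCASP1Tg mean of 2113.

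**Figure D2:**
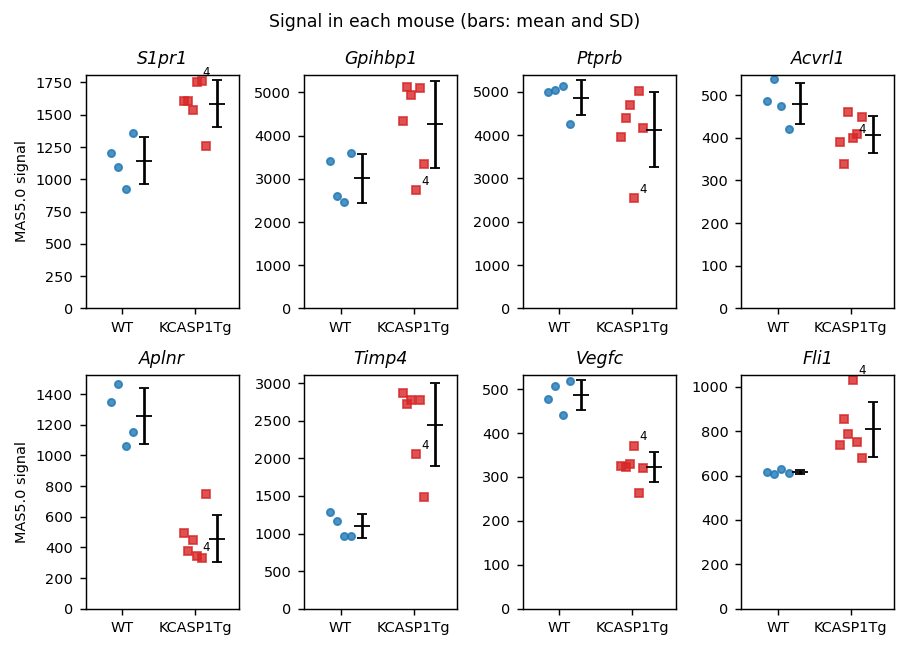
MAS5.0 signals (vertical axes, linear, from 0) of each WT mouse (circles, n = 4) and KCASP1Tg mouse (squares, n = 6) are plotted for 4 endothelial identity genes (S1pr1, Gpihbp1, Ptprb, Acvrl1) and for 4 of their partners and subtype genes (Aplnr, Timp4, Vegfc, Fli1), with the mean and SD beside them; the square marked 4 is KCASP1Tg 4. The groups overlap in the upper row and are apart in the lower row.

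Of the 3 VEGF receptors, 0 passed the test, and the intervals of all 3, each read from its brightest probe set, lay within 1.5-fold. Kdr (VEGFR2) is the main signalling receptor for VEGF-A, Flt1 (VEGFR1) binds it as a high-affinity decoy, and Flt4 (VEGFR3) is the receptor for VEGF-C in lymphatic and some blood endothelium. In WT mice Kdr stood at 2066, 1485, 1532 and 2005, and in KCASP1Tg mice it ranged from 1403 to 2051 around a median of 1912. The groups overlapped almost entirely, with 2 WT mice (2 and 3) and 2 KCASP1Tg mice (4 and 5) below the other 6. For Kdr the difference was 0.029 ± 0.15 with an interval of -0.31 to 0.37. Flt4 was the receptor of the 3 with the smallest p. Flt4 gave signals of 540.5, 533, 571 and 476 in WT mice and of 512 (lowest), 559 (median) and 848 (highest) in KCASP1Tg mice. Its top value came from KCASP1Tg 4, KCASP1Tg 3 was slightly above the WT range and the other 4 KCASP1Tg arrays were within it. Flt4 differed by 0.17 ± 0.15, and by 0.065 without KCASP1Tg 4.

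Flt1 was read by 4 probe sets. The brightest differed by 0.059 ± 0.15, and the others by 0.17 ± 0.17, 0.44 ± 0.17 and 0.40 ± 0.17. The last 2, with WT means of 216 and 169.7, had an unadjusted p of 0.029 and 0.0358 and an adjusted p of 0.554 and 0.58. Their intervals, 1.04 to 1.77-fold and 1.02 to 1.70-fold, went beyond 1.5-fold. Over all 52 tested probe sets of the endothelial genes, 6 had an unadjusted p under 0.05, where 7.94% of all probe sets did, and 0 an adjusted one. Of the 12 genes with more than 1 tested probe set, 3 (Acvrl1, Egfl7 and Mmrn2) had probe sets of different sign.

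Among the ligands and co-receptors of these receptors, 0 of 7 passed the test, and 1 (Vegfc) was lower at an unadjusted p under 0.05. Vegfc, the ligand of Flt4, was lower in every KCASP1Tg mouse than in every WT mouse. Vegfc read 477, 506, 442 and 518 in the 4 WT mice and had a median of 324 in the 6 KCASP1Tg mice, with 264 the lowest and 371 the highest. The difference for Vegfc was -0.60 ± 0.11 (0.661-fold, interval 0.557 to 0.785), with an adjusted p of 0.117 in limma. The exact Mann-Whitney test (two-sided) gave an unadjusted p of 0.00952, as for every probe set whose groups do not overlap. That is the smallest p that this design allows, and 0 of 26242 probe sets passed this test after adjustment. Its 2 other probe sets gave differences of -0.28 ± 0.20 and -0.69 ± 0.12. Vegfc passed the test under 1 alternative, array weights (adjusted p = 0.0203). Without KCASP1Tg 4 its adjusted p was 0.0507. Pgf, the placental growth factor that binds Flt1, ran the other way. In WT mice Pgf stood at 169.5, 133, 186 and 42.3, and in KCASP1Tg mice it ranged from 154 to 274 around a median of 193. WT 4 was far below the other WT mice, and without WT 4 the Pgf difference of 0.80 ± 0.37 became 0.32. Vegfa, the ligand of Kdr, differed by 0.23 ± 0.26, and its co-receptor Nrp1 by -0.19 ± 0.18.

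The angiopoietin and Tie genes had 3 negative differences of 3, and 0 of them passed the test. Tek (Tie2) is the receptor for angiopoietins, Tie1 its partner without a known high-affinity ligand, and Ptprb (VE-PTP) the phosphatase that holds Tie2 and VE-cadherin signalling in check. Ptprb gave signals of 5004, 5033, 5144 and 4267 in WT mice and of 2542 (lowest), 4285 (median) and 5025 (highest) in KCASP1Tg mice. KCASP1Tg 4 was far below the rest, and of the other 5 KCASP1Tg mice 1, KCASP1Tg 5, reached the level of the 3 highest WT mice. For Ptprb the difference was -0.26 ± 0.18 (adjusted p = 0.792), and its other 2 probe sets gave -0.38 ± 0.17 and -0.41 ± 0.16, with an unadjusted p of 0.0426 and 0.0281 and an adjusted p of 0.598 and 0.551. Without KCASP1Tg 4 the difference of the brightest was -0.13. Tek differed by -0.14 ± 0.14 and Tie1 by -0.15 ± 0.14, and without KCASP1Tg 4 by -0.038 and -0.11.

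Of the 3 genes measured in the angiopoietin list (Angpt1, Angpt2 and the angiopoietin-like Angptl4), 0 passed the test and 0 had an unadjusted p under 0.05. Angpt2 is released by endothelium itself and can oppose Tie2 activation. Angpt2 read 595, 661, 723 and 664 in the 4 WT mice and had a median of 615 in the 6 KCASP1Tg mice, with 424 the lowest and 649.8 the highest. The ranges overlapped, with KCASP1Tg 2 and KCASP1Tg 4 lowest, and the difference was -0.22 ± 0.14. Angptl4, a secreted inhibitor of lipoprotein lipase, spread widely in both groups. In WT mice Angptl4 stood at 2626, 2362, 2663 and 3762, and in KCASP1Tg mice it ranged from 1575 to 3521 around a median of 2420.1. The difference for Angptl4 was -0.21 ± 0.23 with an interval of -0.73 to 0.30, and without WT 4, the highest WT value, it was -0.072. Angpt1, the activating ligand from mural cells, differed by -0.0099 ± 0.38.

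Eng (endoglin) and Acvrl1 (ALK1) form the endothelial receptor for BMP9 and BMP10, and loss of either causes hereditary hemorrhagic telangiectasia. Eng gave signals of 1239, 1181, 1138 and 1215 in WT mice and of 765 (lowest), 1232 (median) and 1454 (highest) in KCASP1Tg mice. The 4 WT signals lay close together and inside the KCASP1Tg range, whose low end was KCASP1Tg 4. For Eng the difference was -0.029 ± 0.17, and 0.093 without KCASP1Tg 4. Acvrl1 read 485, 538, 475 and 421 in the 4 WT mice and had a median of 404 in the 6 KCASP1Tg mice, with 339 the lowest and 459 the highest. 4 of the 6 KCASP1Tg mice were below every WT mouse, with WT 4 the lowest of the WT group. Acvrl1 differed by -0.24 ± 0.12 (0.848-fold, interval 0.709 to 1.02, adjusted p = 0.673). Its groups did not overlap without WT 4, as for 5.95% of all probe sets in that setting, and the difference was then -0.30. A second probe set of Acvrl1 gave 0.0043 ± 0.17.

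In the BMP list of ligands and targets, 0 of 8 tested genes passed and 0 had an unadjusted p under 0.05. Bmp4 is a ligand made by endothelium and other cells of the vessel wall. In WT mice Bmp4 stood at 1349.8, 1697, 1865 and 872, and in KCASP1Tg mice it ranged from 601 to 1407 around a median of 1084. The ranges overlapped, with KCASP1Tg 4 lowest. Bmp4 differed by -0.47 ± 0.27 (adjusted p = 0.734), by -0.32 without KCASP1Tg 4 and by -0.69 without WT 4, the lowest WT value. Gdf2, which encodes the circulating ligand BMP9 and is made mainly in liver, is the other ligand named here. Gdf2 gave signals of 235, 179, 206 and 212 in WT mice and of 144 (lowest), 172 (median) and 227 (highest) in KCASP1Tg mice. The groups overlapped through KCASP1Tg 3 and KCASP1Tg 4, and Gdf2 differed by -0.23 ± 0.14. Id1 and Id3, direct targets of BMP signalling, differed by 0.24 ± 0.25 and 0.20 ± 0.21, and Smad6 and Smad7, its feedback inhibitors, by 0.19 ± 0.26 and 0.18 ± 0.13. All 4 point estimates of these targets were positive and 0 of the 4 passed.

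Notch4 is the Notch receptor most restricted to endothelium, and Dll4 is the ligand of arterial and sprouting endothelium. Notch4 read 505, 411, 410.4 and 511 in the 4 WT mice and had a median of 543 in the 6 KCASP1Tg mice, with 392 the lowest and 718 the highest. KCASP1Tg 1, 2, 3 and 6 exceeded every WT mouse, KCASP1Tg 5 was within the WT range and KCASP1Tg 4 was below it. For Notch4 the difference was 0.23 ± 0.16 (interval -0.13 to 0.59, adjusted p = 0.802), and 0.32 without KCASP1Tg 4. Dll4 differed by 0.16 ± 0.19, with the WT mice spread from 154 (WT 3) to 318 (WT 4) around all KCASP1Tg mice (223 to 265).

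Of 9 Notch receptors, ligands and targets, 0 passed the test and 2, Dll1 and Jag1, were lower at an unadjusted p under 0.05. Both are ligands, and both had lower signals in every KCASP1Tg mouse than in every WT mouse. In WT mice Dll1 stood at 581, 638, 709 and 589.5, and in KCASP1Tg mice it ranged from 449.7 to 553 around a median of 488. Dll1 differed by -0.36 ± 0.11 (0.782-fold, adjusted p = 0.419). Jag1 gave signals of 1466, 1679, 1482 and 1525 in WT mice and of 1088 (lowest), 1288 (median) and 1438 (highest) in KCASP1Tg mice. Jag1, which smooth muscle cells of the vessel wall express as well as endothelium, differed by -0.26 ± 0.11 (0.834-fold, adjusted p = 0.592), and its other 2 probe sets by -0.34 ± 0.11 and -0.23 ± 0.15. The Notch targets Hey1, Hey2, Heyl and Hes1 differed by -0.052 ± 0.15, -0.21 ± 0.22, -0.19 ± 0.28 and 0.084 ± 0.22.

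Of the junction genes, Cdh5 encodes VE-cadherin, the adherens junction protein of endothelium, Pecam1 encodes the adhesion protein CD31, Esam an adhesion protein of tight junctions, Cldn5 the endothelial claudin and Rasip1 a Ras-interacting protein needed for vessel lumens. Esam had the smallest SE of the 5. Esam read 3017, 3053, 2963 and 3182 in the 4 WT mice and had a median of 3326 in the 6 KCASP1Tg mice, with 2932 the lowest and 3624 the highest. Most KCASP1Tg mice were slightly above the WT range and 2, KCASP1Tg 4 and KCASP1Tg 6, were within or just below it. For Esam the difference was 0.10 ± 0.10 with an interval of -0.12 to 0.31, a bound of 1.24-fold on the high side and 0.923-fold on the low side. Cdh5 differed by 0.088 ± 0.22, Pecam1 by 0.11 ± 0.13, Cldn5 by 0.033 ± 0.15 and Rasip1 by -0.12 ± 0.18. All 5 intervals lay within 1.5-fold. Cdh5 was lowest on KCASP1Tg 4 (654, against 915 to 1446 on the other KCASP1Tg arrays), and its difference was 0.23 without that array and 0.0018 without KCASP1Tg 6.

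Of the transcription factors, Erg is the ETS factor that maintains endothelial identity, Sox7, Sox17 and Sox18 are the SOXF factors of vascular development and Klf2 is induced by laminar flow. In WT mice Klf2 stood at 1562, 1540.2, 2347 and 2399, and in KCASP1Tg mice it ranged from 1261 to 3080.2 around a median of 2211. Both groups were widely spread, with KCASP1Tg 4 highest and KCASP1Tg 6 lowest of all 10. For Klf2, which lymphocytes also express, the difference was 0.12 ± 0.26. It was 0.0035 without KCASP1Tg 4 and 0.26 without KCASP1Tg 6. Sox7 gave signals of 519, 483, 486 and 533 in WT mice and of 251 (lowest), 449 (median) and 532 (highest) in KCASP1Tg mice. The WT values were tight, and 3 KCASP1Tg mice (1, 4 and 6) were below them all. Sox7 differed by -0.27 ± 0.20 (interval -0.71 to 0.16, adjusted p = 0.812), and by -0.13 without KCASP1Tg 4. Sox17 and Sox18 differed by 0.029 ± 0.21 and 0.043 ± 0.17, and by 0.17 and 0.17 without KCASP1Tg 4. Erg differed by -0.019 ± 0.10, with an interval of -0.24 to 0.20 that was among the narrowest of the 32.

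Of 11 further ETS, KLF and other endothelial transcription factors, 0 passed the test and 1, Fli1, was higher at an unadjusted p under 0.05. Fli1 is the close relative of Erg, and is also expressed in megakaryocytes and other blood cells. Fli1 read 615, 608, 628 and 609.7 in the 4 WT mice and had a median of 771 in the 6 KCASP1Tg mice, with 681 the lowest and 1033 the highest. Every KCASP1Tg mouse was above every WT mouse, and the WT signals differed little among themselves. For Fli1 the difference was 0.38 ± 0.12 (1.3-fold, interval 1.08 to 1.57, adjusted p = 0.45), and its second probe set gave 0.35 ± 0.16. Its highest value was on KCASP1Tg 4, the array with the highest macrophage and lymphocyte signals, and without that array the difference was 0.31. The summed signal of the macrophage markers (6 genes) was 9415 to 14171 in WT mice and 13220 to 38805 in KCASP1Tg mice, with KCASP1Tg 4 highest. That of the platelet markers (6 genes) was 3025 to 4972 in WT mice, 9571 to 17738 on 5 KCASP1Tg arrays and, on KCASP1Tg 4, 3944, which is within the WT range. The part of these cells in the Fli1 signal was not tested. In WT mice Mef2c stood at 889.7, 976, 858 and 1109, and in KCASP1Tg mice it ranged from 637 to 969 around a median of 859. Mef2c is a factor upstream of Klf2. The ranges overlapped and the Mef2c difference was -0.23 ± 0.16.

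ETS factors such as Erg and Fli1 bind sites with the core letters GGAA, and the promoters of the 32 genes were searched for 2 such words. RefSeq promoter sequences (build GRCm38.p6, 250 bases before each start site, both strands) were at hand for 17 of the 32 genes. The word AGGAAG was found in 10 of the 17 (58.8%), against 32.3% of 27025 genes, 31.97% of the 9901 genes tested here and 29.5% of all 32851 promoter windows. The longer CAGGAAG, which contains it, was found in 6 of the 17 (35.3%), against 12.1%, 11.9% and 10.8%. A match is a description of the letters, not of a bound site. The stretches of those 6 genes are shown as the feature of sequence that was read beside the expression values. Each runs 5′ to 3′ on the strand of the gene, and capitals mark CAGGAAG or its reverse complement CTTCCTG. Egfl7 has 2 start sites with a match.
Egfl7, chr2:26581007-26581067, plus strand: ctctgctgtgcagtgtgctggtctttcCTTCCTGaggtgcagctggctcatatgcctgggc
Egfl7, chr2:26583757-26583817, plus strand: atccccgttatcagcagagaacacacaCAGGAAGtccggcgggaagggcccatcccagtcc
Emcn, chr3:137340877-137340937, plus strand: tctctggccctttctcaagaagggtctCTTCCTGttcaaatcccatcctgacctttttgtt
Rasip1, chr7:45627419-45627479, plus strand: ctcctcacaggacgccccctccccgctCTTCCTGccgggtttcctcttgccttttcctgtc
Robo4, chr9:37401895-37401955, plus strand: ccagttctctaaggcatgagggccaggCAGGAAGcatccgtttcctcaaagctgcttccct
Erg, chr16:95459355-95459415, minus strand: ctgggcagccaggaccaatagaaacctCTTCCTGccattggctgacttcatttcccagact
Notch4, chr17:34564045-34564083, plus strand: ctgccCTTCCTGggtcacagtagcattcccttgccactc
The differences of these 6 genes had both signs: Egfl7, Emcn, Rasip1, Robo4, Erg and Notch4 differed by 0.14 ± 0.15, -0.055 ± 0.13, -0.12 ± 0.18, 0.039 ± 0.15, -0.019 ± 0.10 and 0.23 ± 0.16.

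The surface and matrix glycoproteins showed 0 of 8 with an unadjusted p under 0.05. Vwf encodes von Willebrand factor, which endothelium stores in Weibel-Palade bodies and which platelets also carry. Vwf gave signals of 3903, 5106, 5866 and 3396 in WT mice and of 2480.4 (lowest), 4472 (median) and 6065 (highest) in KCASP1Tg mice. Both groups spanned nearly the same range, except that KCASP1Tg 4 was lowest. For Vwf the difference was -0.075 ± 0.25 with an interval of -0.63 to 0.48. The platelet markers, whose cells also carry Vwf, had a mean log2 signal 1.63 higher in KCASP1Tg mice, and their part in the Vwf signal was not tested. Egfl7, a secreted protein of the endothelial matrix and the host of a vascular microRNA, was the gene of this role with the smallest p. Egfl7 read 1441, 1957, 1904 and 1472 in the 4 WT mice and had a median of 1801 in the 6 KCASP1Tg mice, with 1531 the lowest and 2397 the highest. KCASP1Tg 6 was the highest and KCASP1Tg 4 just above the WT range, and the rest were mixed. Egfl7 differed by 0.14 ± 0.15, its other 3 probe sets by 0.16 ± 0.11, 0.095 ± 0.11 and -0.057 ± 0.17.

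The other 6 glycoprotein genes had point estimates from -0.13 (Cd93) to 0.10 (Ecscr). Cd93, a C-type lectin, and Mmrn2, its matrix ligand, differed by -0.13 ± 0.14 and -0.10 ± 0.11, and without KCASP1Tg 4 Cd93 differed by -0.039. The other tested probe sets of Mmrn2 had both signs, at -0.16 ± 0.090, 0.20 ± 0.15 and 0.027 ± 0.15. Clec14a, another lectin that binds Mmrn2, differed by -0.042 ± 0.12. Emcn, the sialomucin endomucin of veins and capillaries, differed by -0.055 ± 0.13, and Robo4, a receptor that stabilizes vessels, by 0.039 ± 0.15. Slit2 and Slit3, the ligands of the Robo family, differed by -0.46 ± 0.21 and 0.37 ± 0.16. In WT mice Slit3 stood at 458, 476, 374 and 483, and in KCASP1Tg mice it ranged from 426 to 724 around a median of 580.5. 5 of 6 KCASP1Tg mice were above the WT range and KCASP1Tg 4 was inside it, and the adjusted p of Slit3 was 0.615.

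Control of vessel tone and of clotting are further functions of endothelium. Of 8 flow and anticoagulant genes, 0 passed and 0 had an unadjusted p under 0.05. Nos3 gave signals of 2192, 1839.6, 2169 and 2527 in WT mice and of 1179 (lowest), 1975 (median) and 2276 (highest) in KCASP1Tg mice. Nos3, the endothelial nitric oxide synthase, was lowest on KCASP1Tg 4 and KCASP1Tg 2 and otherwise overlapped, with a difference of -0.29 ± 0.19 and of -0.18 without KCASP1Tg 4. Edn1 read 272, 283, 259 and 311 in the 4 WT mice and had a median of 337 in the 6 KCASP1Tg mice, with 239.8 the lowest and 584 the highest. Edn1, the vasoconstrictor endothelin-1, had 3 high KCASP1Tg values (3, 5 and 6), with KCASP1Tg 1 and KCASP1Tg 2 in the WT range and KCASP1Tg 4 below it, and differed by 0.35 ± 0.23. Thbd and Procr, which encode thrombomodulin and the protein C receptor of the anticoagulant surface, differed by -0.10 ± 0.16 and -0.13 ± 0.16.

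Over all 57 pathway partners, 55 were tested and 0 passed, with a median difference of 0.014. At an unadjusted p under 0.05, 3 were higher (Fli1, Slit3 and Sphk2, the last with a second probe set of the other sign) and 3 lower, against 4.52% and 3.42% of all probe sets. The groups did not overlap for 1 higher (Fli1) and 3 lower (Vegfc, Dll1 and Jag1), against 1.98% and 0.949%.

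Arterial, venous, capillary and lymphatic endothelium each have genes of their own, and of 28 such subtype genes listed 27 were analysed and 26 tested. Of the 26, 0 passed the test. At an unadjusted limma p under 0.05, 2 were higher (Timp4 and Lyve1) and 1 lower (Aplnr), against 4.52% and 3.42% of all probe sets. The groups did not overlap for 1 higher (Timp4) and 1 lower (Aplnr), against 1.98% and 0.949%. Aplnr, the receptor of the peptide apelin and a gene of venous and sprouting endothelium, had the largest difference of all lists of endothelial genes read here. In WT mice Aplnr stood at 1347, 1467, 1059 and 1155, and in KCASP1Tg mice it ranged from 330.3 to 748 around a median of 415. Even the highest KCASP1Tg signal (KCASP1Tg 6) was below the lowest WT signal. For Aplnr the difference was -1.51 ± 0.22 (0.352-fold, interval 0.25 to 0.495), with an adjusted p of 0.0545, and its second probe set gave -0.82 ± 0.25. The adjusted p was 0.0444 without KCASP1Tg 4 and 0.0131 without KCASP1Tg 6, and it lay between 0.110 and 0.163 without any 1 of the other arrays. The other venous genes gave differences of both signs: Nr2f2, the venous transcription factor, differed by -0.12 ± 0.14, Ackr1 by 0.59 ± 0.29 and Selp by 0.0035 ± 0.13. Ephb4 gave signals of 378, 422, 316 and 328 in WT mice and of 281 (lowest), 302 (median) and 347 (highest) in KCASP1Tg mice. For Ephb4, the venous ephrin receptor, 5 KCASP1Tg mice were below every WT mouse, KCASP1Tg 5 was within the WT range and the difference was -0.24 ± 0.11.

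Of the capillary genes, Timp4, a metalloproteinase inhibitor that is expressed in fat as well, was higher in every KCASP1Tg mouse than in every WT mouse. Timp4 read 1290.4, 1165, 969 and 971 in the 4 WT mice and had a median of 2749 in the 6 KCASP1Tg mice, with 1486 the lowest and 2873 the highest. For Timp4 the difference was 1.13 ± 0.20 (2.19-fold, interval 1.61 to 2.97, adjusted p = 0.109), and its second probe set gave 1.09 ± 0.22. With the adipocyte signal as a covariate it was 0.98. It passed the test without KCASP1Tg 6 (adjusted p = 0.0151). In WT mice Fabp5 stood at 20914, 15482, 21305 and 18228, and in KCASP1Tg mice it ranged from 9225 to 19876 around a median of 14921. Fabp5, a fatty acid binding protein of capillary endothelium and fat, differed by -0.38 ± 0.20, with KCASP1Tg 3 lowest. Cd36, Fabp4 and Btnl9 differed by 0.16 ± 0.21, 0.036 ± 0.13 and 0.11 ± 0.16.

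The arterial genes showed 0 of 7 with an unadjusted p under 0.05. Gja4 gave signals of 757, 616, 625 and 559 in WT mice and of 529 (lowest), 682 (median) and 871 (highest) in KCASP1Tg mice. Gja4, a gap junction protein of arterial endothelium, differed by 0.12 ± 0.16, with overlapping groups. Mecom read 836, 774, 737 and 950.4 in the 4 WT mice and had a median of 818 in the 6 KCASP1Tg mice, with 318 the lowest and 937 the highest. Mecom, a transcription factor of arterial endothelium, was within or close to the WT range in all KCASP1Tg mice but KCASP1Tg 4, and its difference of -0.20 ± 0.27 became 0.029 without that array.

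Of the lymphatic genes, Lyve1 is the hyaluronan receptor of lymphatic endothelium and also marks macrophages around vessels. In WT mice Lyve1 stood at 737, 817, 669.9 and 706, and in KCASP1Tg mice it ranged from 671 to 2839.5 around a median of 1068. KCASP1Tg 3 and KCASP1Tg 4 were far above the rest and KCASP1Tg 6 was within the WT range. The difference for Lyve1 was 0.83 ± 0.37 (adjusted p = 0.626). KCASP1Tg 3 and KCASP1Tg 4 also had the highest summed macrophage signals, 25156 and 38805, against 9415 to 19232 on the other 8 arrays, and the part of macrophages in the Lyve1 signal was not tested. Prox1, the factor that defines lymphatic identity, differed by -0.25 ± 0.29, and Pdpn by 0.13 ± 0.16. Reln gave signals of 2542, 2273, 1904 and 809 in WT mice and of 946 (lowest), 1090.1 (median) and 1572 (highest) in KCASP1Tg mice. Reln, which lymphatic endothelium secretes, had 3 high WT values and was lowest in WT 4, with a difference of -0.58 ± 0.30 and of -0.95 without WT 4.

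Array by array, the mean level of the 32 genes varied less over the WT mice than over the KCASP1Tg mice. This held with and without KCASP1Tg 4, the array that stood apart. The mean log2 signal over the genes was between 10.22 and 10.24 on the 4 WT arrays. It was between 10.04 and 10.42 on the 6 KCASP1Tg arrays, and between 10.24 and 10.42 without KCASP1Tg 4. The summed signal was 50728 to 52576 in WT mice. In KCASP1Tg mice it was 44978 on KCASP1Tg 4 and 51045 to 62802 on the other 5. The median gene on KCASP1Tg 4 was 0.20 below its WT mean, and on the other 5 between -0.0077 and 0.16 from it. KCASP1Tg 4 was the lowest of the 10 arrays for 13 of the 32 genes (40.6%), against 20.05% of all probe sets tested, and the highest for 4 (12.5%), against 23.2%.

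**Figure D3:**
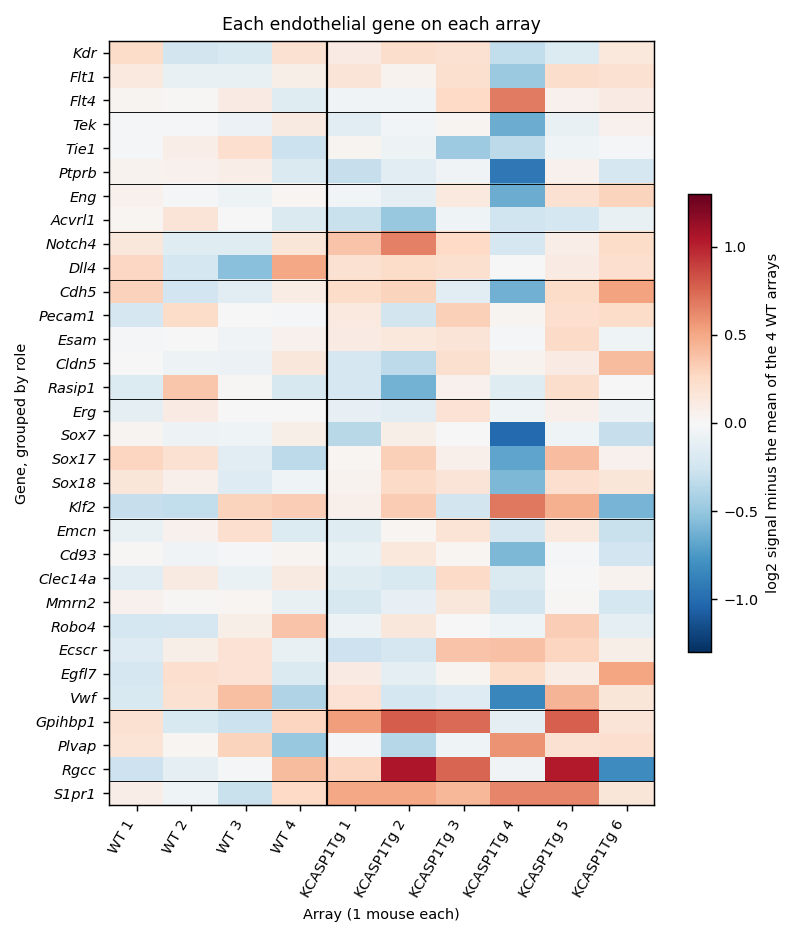
The colour of each cell gives the log2 signal of 1 gene (rows, grouped by role) on 1 array (columns) minus the mean of the 4 WT arrays; red is higher and blue lower. KCASP1Tg 4 holds most of the dark blue cells, the Rgcc row varies most between KCASP1Tg mice, and the S1pr1 row is red on all 6 KCASP1Tg arrays, least on KCASP1Tg 6.

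Within the KCASP1Tg group, 25 of the 32 genes were lower on KCASP1Tg 4 than the mean of the other 5, with a median log2 difference of -0.20, while over all probe sets tested 46.5% were lower and the median was 0.042. 13 genes were lower by more than 0.5 and 3 higher by more than 0.5. The largest shortfalls were in Vwf (-0.93), Sox7 (-0.88), Cdh5 (-0.86), Sox17 (-0.85) and Ptprb (-0.80). The genes that were higher there were Klf2 (0.68), Flt4 (0.61), Plvap (0.59), Ecscr (0.34), S1pr1 (0.19), Egfl7 (0.11) and Cldn5 (0.012). Pecam1 (-0.098), Erg (-0.045) and Esam (-0.15) were close to the other KCASP1Tg arrays. This is 1 mouse, so its pattern has no replicate check.

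Markers of other cells moved on the same arrays. On KCASP1Tg 4 the mean log2 signal of the smooth muscle markers (6 genes) was 10.89 against 12.20 to 12.80 on the other KCASP1Tg arrays, and that of the pericyte markers (7 genes) was 10.03 against 10.71 to 10.94. Between the genotypes, the neutrophil markers (5 genes measured, 2 called higher: S100a8 and S100a9) differed by 4.44 and the macrophage markers by 0.60 in mean log2 signal, with 0 of 6 called. Platelet markers differed by 1.63 (0 of 6 called, 6 higher at an unadjusted p under 0.05), lymphocyte and lymph node markers by 1.63 and heart muscle markers by 0.54, and erythroid markers (3 genes measured) by 2.01, with Hba-a1 below 100 on every array. Fibroblast markers differed by -0.53 (0 of 6 called, 3 lower at an unadjusted p under 0.05), smooth muscle by -0.29, pericytes by 0.060, adipocytes by 0.23, brown adipocytes by -0.27, mesothelium by 0.15 and Schwann cells by -0.43. The endothelial genes differed by 0.039 in the same measure. Several of these values depended on KCASP1Tg 4. Without that array the difference of the smooth muscle markers was -0.019, of pericytes 0.19, of adipocytes 0.35, of brown adipocytes -0.049, of mesothelium 0.48, of lymphocytes and lymph node 0.90 and of heart muscle 1.09. That of the other lists moved by less than 1.5 times. The difference of the endothelial genes was then 0.084. Their mean log2 signal on each of the 5 other KCASP1Tg arrays (10.24 to 10.42) was above the highest WT value (10.24). On KCASP1Tg 1 the margin was smaller than this rounding shows. KCASP1Tg 4 (10.04) was the lowest of all 10 arrays in this mean, and with it the groups overlapped. The separation thus rests on leaving out that array, without which 3.72% of all probe sets tested were apart too. What part these other cells have in any endothelial signal was not tested.

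**Figure D4:**
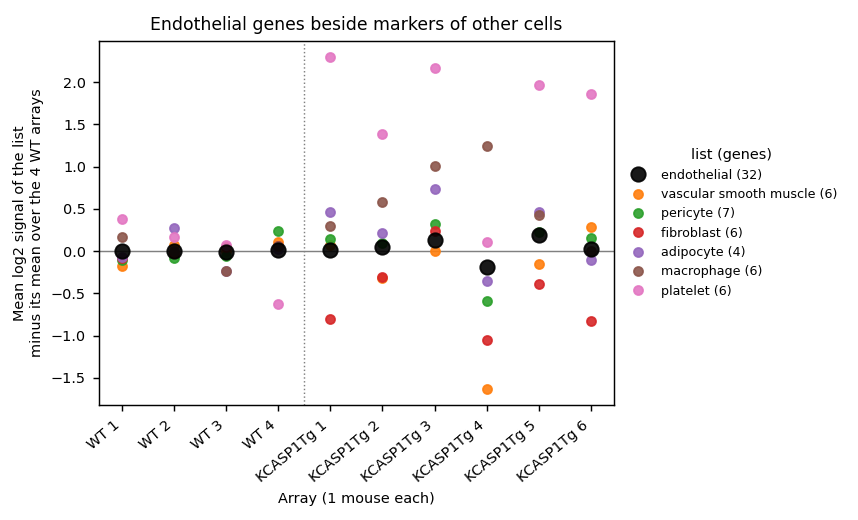
The mean log2 signal of the 32 endothelial genes (large black points) and of the marker genes of 6 other cell types (coloured points) is plotted for each array as the difference from its mean over the 4 WT arrays. The endothelial points stay close to 0 on all arrays and are lowest on KCASP1Tg 4 (mean log2 signal 10.04), where the smooth muscle points are lowest too (10.89); the platelet markers lie above 0 on all 6 KCASP1Tg arrays.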

How the data were processed

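Abdominal aorta RNA from 4 WT and 6 KCASP1Tg mice, separate animals, was hybridised to GeneChip Mouse Genome 430 2.0 arrays. The deposited values are the signal intensity of each probe set that the authors computed with MAS5.0, scaled to a trimmed mean of 500 per array; MAS5.0 corrects for background and mismatch probes, so that dim signals vary most. Recomputed with 2% trimmed from both ends, this mean was 500.0 for all arrays. The methods describe a floor of 1, log2 transformation and mean subtraction as later steps. The table held 45101 probe sets. The 64 controls were left out, and 34945 had 1 gene symbol.

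Signals under 1 were set to 1 and taken to log2. The 26242 probe sets that reached 100 on 4 or more arrays were fitted with limma 3.58.1 in R 4.3.3 (lmFit, eBayes; genotype as the term). P-values were adjusted by the Benjamini-Hochberg method over all of them, and a gene was called at an adjusted p under 0.05. A gene was read from its probe set with the highest mean signal. Differences are KCASP1Tg minus WT on the log2 scale with the SE; intervals are 95% intervals of limma. Beyond that choice and that of the gene with the highest signal in each role, levels of different probe sets were not compared, since they also depend on the probes. The number of arrays limits the precision.

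The 33 genes, the lists of partners, subtype genes and markers, and the tests were chosen with earlier results of these data known. The signals of each WT mouse, and the lowest, median and highest of the 6 KCASP1Tg mice, are given for genes with an unadjusted p under 0.05 or groups that do not overlap, for the gene with the highest signal and the gene with the smallest p of each role, and for the 2 genes with the smallest p of each partner and subtype list. Some genes of the marker lists were not analysed here. Replicate numbers in the labels were not taken to pair mice. The tests were checked on simulated data. In all, 27 alternatives were tried. Promoters came from RefSeq (GRCm38.p6). Scanner output was not used here, and the number of mice the methods give for the arrays (8) differs from the 10 arrays analysed.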

Additional observations from a re-analysis of the deposited data

Results flagged for a closer look

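In 6 of the 66 sets of values tested (9.09%; 32 genes and their mean, in each genotype), 1 array lay far from the others of its group by Dixon's criterion, which chance exceeds in about 1 in 20 groups. Of the 6, 5 were the lowest value of the KCASP1Tg group and came from KCASP1Tg 4. They were Flt1 (log2 signal 9.22, the next lowest 9.75), Tek (9.90, next 10.39), Ptprb (11.31, next 11.95), Sox17 (9.42, next 10.13) and Sox18 (9.97, next 10.60). The sixth was Ptprb in the WT group, where WT 4 was lowest (12.06, next 12.29). The 5 values on KCASP1Tg 4 come from 1 mouse and are not independent of each other.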

How the results depend on the processing

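For the 32 endothelial genes, the 27 alternatives changed the count called and the median difference little. The differences of single genes were less stable, and 17 changed sign in some alternative. The count called stayed at 0 except with array weights (1, S1pr1, where 1.02% of all probe sets were called), and the median difference lay between -0.029 and 0.065. Under array weights 1 partner (Vegfc) and 2 subtype genes (Aplnr and Timp4) passed. Of the subtype genes 1 (Aplnr) passed with a floor of 16, a pseudocount of 50, a signal minimum of 200, an intensity trend or a smooth muscle covariate, and 2 (Aplnr and Timp4) with WT 1 to 3 and KCASP1Tg 1 to 5. When each array was left out, the subtype count ranged from 0 to 2 (1 without KCASP1Tg 4, 2 without KCASP1Tg 6), and the number of endothelial genes whose groups did not overlap ranged from 0 to 2 (2 without WT 4, 1 without KCASP1Tg 6; 5.95% and 5.28% of all probe sets). That number was 1 (Ptprb) with all probe sets of a gene averaged (3.3% of all genes), 2 (Acvrl1 and S1pr1; 6.25%) with WT 1 to 3 and KCASP1Tg 1 to 5 (13.1% of all probe sets), 3 (Acvrl1, Cldn5 and S1pr1; 9.38%) without WT 4, KCASP1Tg 1 and KCASP1Tg 2 (8.7%), and 3 (Acvrl1, Mmrn2 and S1pr1; 9.38%) without WT 4 and KCASP1Tg 3 (7.09%). Fewer arrays alone make groups separate more often.

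Of the 32 genes, 15 kept the sign of their difference under all 27 alternatives and 17 did not; the largest difference among the 17 was 0.16 in size (Dll4). Signs turned as follows, and the cause was not tested. With the adipocyte covariate Kdr was -0.017, Flt1 -0.040, Sox17 -0.11 and Sox18 -0.073. With the smooth muscle covariate Eng was 0.098, Klf2 -0.024, Vwf 0.082 and Mecom 0.025. With array weights Eng was 0.058, Ecscr -0.020, Plvap -0.12 and Mecom 0.0098. With WT 1 to 3 and KCASP1Tg 1 to 5 Sox17 was -0.089, Sox18 -2.7e-05, Plvap -0.099 and Gja4 -0.0057. Without WT 4, KCASP1Tg 1 and KCASP1Tg 2 Eng was 0.0013, Erg 0.031, Sox17 -0.15, Sox18 -0.029 and Clec14a 0.067. Without WT 4 and KCASP1Tg 3 Sox17 was -0.092, Sox18 -0.0012 and Plvap -0.044. Over the mean of its probe sets Sphk2 was -0.056. Leaving out each array in turn gave ranges that cross 0 for Kdr (-0.050 to 0.11), Eng (-0.092 to 0.093), Dll4 (-0.022 to 0.33), Cldn5 (-0.041 to 0.11), Rasip1 (-0.19 to 0.0019), Erg (-0.060 to 0.017), Sox17 (-0.085 to 0.17), Sox18 (-0.011 to 0.17), Emcn (-0.12 to 0.017), Robo4 (-0.037 to 0.16), Vwf (-0.21 to 0.080), Plvap (-0.073 to 0.19) and Mecom (-0.28 to 0.029).

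Mice with the same replicate number were not taken as pairs, since the labels do not state a pairing. The correlation of their deviations was 0.11, -0.31, -0.43 and -0.33 for numbers 1 to 4. Mice with different numbers were not compared in this way, so these values do not decide whether the numbers mark pairs. With the replicate block 0 endothelial genes were called, the median difference was -0.029, and Flt1 was -0.018, Cdh5 -0.058, Cldn5 -0.078, Sox17 -0.070, Sox18 -0.030 and Gja4 -0.029.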
